A study of Mus musculus with 16 samples.

Results

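Transcripts of 10 immediate early transcription factor genes were followed in bulk RNA-seq of mouse lung endothelial cells. The genes were Fos, Fosb, Fosl2, Jun, Junb, Jund, Atf3, Egr1, Nr4a1 and Ier2. They were taken by gene symbol, and all 10 were found among the 54532 genes listed and all 10 passed the filter on low values in both experiments.

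In experiment 1, male wild-type C57/BL6J mice aged 8 weeks received saline (n = 4) or 10 mg/kg lipopolysaccharide (LPS, n = 6) into the trachea, and endothelial cells were collected 24 h later. In experiment 2, Fgfr1loxp/loxp mice (loxP, n = 3) and littermates that also carried VE-cadherin-CreERT2 (Fgfr1i-delta-EC/i-delta-EC, iDEC, n = 3) received tamoxifen and later 2 mg/kg LPS, with the same 24 h interval. VE-cadherin drives the Cre in endothelial cells, which removes the fibroblast growth factor receptor gene Fgfr1 there, while other lung cells keep it. Experiment 2 had no saline group, so the response of these genes to 2 mg/kg LPS could not be measured within it. In every group the lung was digested with collagenase and dispase on a warm shaker, leukocytes were removed on CD45 beads and endothelial cells were taken on CD31 beads.

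Immediate early genes are switched on within minutes of a stimulus by transcription factors that are already present in the cell and need no new protein. Fos and Jun proteins pair through a leucine zipper to form AP-1, which binds the palindrome TGANTCA, whereas Atf3 belongs to the related ATF/CREB branch and Egr1 and Nr4a1 bind DNA through zinc fingers. Their messages are short-lived and are also known to be induced by warm enzymatic digestion of tissue. All groups were digested in the same way, no undigested sample was analysed here, and the part of digestion in the levels below was not tested.

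Levels are given in FPKM, fragments counted relative to transcript length and to a library total. The total implied by the deposited values was 0.895 (LPS 2) to 1.18 (saline 2) times the reads on genes, so they already carried a scaling between libraries, whose method is not given in the sources used here. The libraries held 13478726 to 18807007 reads on genes in saline, 17840221 to 19043015 in LPS, 15969575 to 17002788 in loxP and 16642177 to 16943522 in iDEC. The values of the 10 genes rested on between 111 reads (Atf3 in saline 4) and 24605 reads (Jun in saline 2).

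The deleted gene was examined first. Fgfr1 stood at 2.90, 2.91 and 2.60 FPKM in the loxP libraries and at 0.68, 1.41 and 1.15 FPKM in the iDEC libraries. Every iDEC library was below every loxP library. The difference on the log2(FPKM + 1) scale was -0.88 ± 0.16 (SE), with an unadjusted limma p of 0.00103 and a Benjamini-Hochberg adjusted p of 0.962 over all genes tested.

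The labelled cell type was checked against its markers. All 10 endothelial markers were detected in all 16 libraries, and Cldn5, a tight junction protein of endothelium, was the most abundant of them in each. Pecam1, which encodes CD31, averaged 400.3 ± 81.5 FPKM in saline (SD, n = 4), 358 ± 76.8 in LPS (n = 6), 397 ± 73.6 in loxP (n = 3) and 476 ± 65.5 in iDEC (n = 3). Ptprc, which encodes the CD45 used for depletion, was nevertheless read in every library, between 3.53 and 10.99 FPKM in saline and between 22.1 and 52.7 FPKM in LPS.

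Saline library 1 stood apart from the other saline libraries. It held the highest level of its group in 9 of the 10 genes, Fosb being the exception, and its median deviation from the group mean was 1.09 on the log2 scale. It was 14.7 times the mean of the other 3 saline libraries for Fosl2, 6.38 times for Atf3, 4.84 times for Fos and 4.72 times for Junb, but 1.09 times for Jun. It was also the shallowest library. Its summed neutrophil markers were 1369 FPKM against 67.7, 300.2 and 72.5 FPKM in saline 2, 3 and 4, and its sums of all other marker lists but the lymphocyte list were the highest of its group too. Of all genes tested, 40.9% were highest in saline 1 among the saline libraries and 37.3% lowest. The tests, ratios, order of levels, residual SDs and nearest genes of the 10 genes after LPS are therefore given with and without it.

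The sequences just upstream of the genes were read as context for genes that rose and for Jun, which did not. RefSeq promoter entries on GRCm38.p6 matched 8 of the 10 symbols, and Egr1 and Ier2 had no entry. In the 250 bases before the start site, both strands were searched for the AP-1 site TGANTCA, the cyclic AMP response element (CRE) TGACGTCA, its core TGACG, the variant TGACATCA, TATAAA and the serum response element. The core TGACG, which is part of TGACGTCA, occurred in 5 of the 8 promoters (Atf3, Fos, Fosb, Junb and Nr4a1) and in 17.8% of all 32851 promoters of that length. Fosb, which was not called after LPS, held it as well, beginning 60 bases before its start. TGACATCA occurred in Jun only, against 2.93% of all promoters, and TATAAA in Fos only, against 12.4%. None of the 8 held TGANTCA (6.75% of all), TGACGTCA (1.55%) or the serum response element (1.47%) in this window. Motifs were chosen with the earlier results known, and a match is no proof of binding.

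The 150 bases that end just before the RefSeq start are shown for Fos, Junb and Nr4a1, which rose after LPS, and for Jun, on GRCm38.p6 and 5′ to 3′ along the gene. Capitals mark TGACG or its complement CGTCA, and in Jun TGACATCA.
Fos, chr12:85473740-85473889, plus strand: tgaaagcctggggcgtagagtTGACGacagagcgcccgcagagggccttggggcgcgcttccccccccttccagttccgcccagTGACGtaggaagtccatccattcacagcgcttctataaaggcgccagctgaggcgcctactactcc
Junb, chr8:84978749-84978898, minus strand: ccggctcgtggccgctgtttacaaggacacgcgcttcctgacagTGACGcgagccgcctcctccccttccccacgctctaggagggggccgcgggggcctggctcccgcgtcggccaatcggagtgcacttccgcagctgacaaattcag
Nr4a1, chr15:101266696-101266845, plus strand: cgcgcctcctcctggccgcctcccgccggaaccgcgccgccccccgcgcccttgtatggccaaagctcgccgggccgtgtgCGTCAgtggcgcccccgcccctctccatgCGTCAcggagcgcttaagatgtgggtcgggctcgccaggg
Jun, chr4:95052223-95052372, minus strand: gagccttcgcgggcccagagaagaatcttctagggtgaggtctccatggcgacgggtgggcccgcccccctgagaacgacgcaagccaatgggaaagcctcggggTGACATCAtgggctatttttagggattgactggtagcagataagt
No annotated exon overlapped these windows. Of the windows not shown, those of Fosl2 and Fosb overlap exons of their own gene, and the RefSeq start of Jund lies 1210 bases upstream of the first base of Jund in the deposited annotation. In Fos the capitals began 129 and 66 bases before the start, in Junb 106, in Nr4a1 69 and 40, and in Jun 45. The RefSeq start of Nr4a1 lies 12577 bases downstream of the first base of the gene in the deposited annotation, so the window shown lies inside the annotated gene. The RefSeq start of Atf3, not shown, lies 34706 bases downstream of the first base of its gene, and the 150 bases before that start overlap an annotated Atf3 exon.

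After LPS, 6 of the 10 genes were called higher and none was called lower. A call required a limma adjusted p of at most 0.05 and a difference of at least 1 on the log2(FPKM + 1) scale. The genes called were Nr4a1, Atf3, Junb, Fos, Egr1 and Ier2. Over all 14893 genes tested, 11.9% were called higher and 6.79% lower by the same rule. The median difference of the 10 genes was 1.34 against 0.01 over all genes tested. The 10 genes were chosen with earlier results of these data known, so these contrasts are a description. Without saline 1, 7 were called higher, Fosl2 being the addition.

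The levels of all libraries were comparable only as far as the scaling holds. With the scaling used, 1768 genes were called higher and 1011 lower. Scaled on total reads these counts were 1378 and 1453 with a median shift of -0.15, and scaled on endothelial markers they were 4374 and 204 with a median shift of 0.57. Because the endothelial share of a bulk library can differ, fewer cells of a type and less RNA per cell cannot be told apart in any level given here. The number of the 10 genes called higher was 5 on total reads, 5 after quantile normalization and 8 on endothelial markers.

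**Figure D1:**
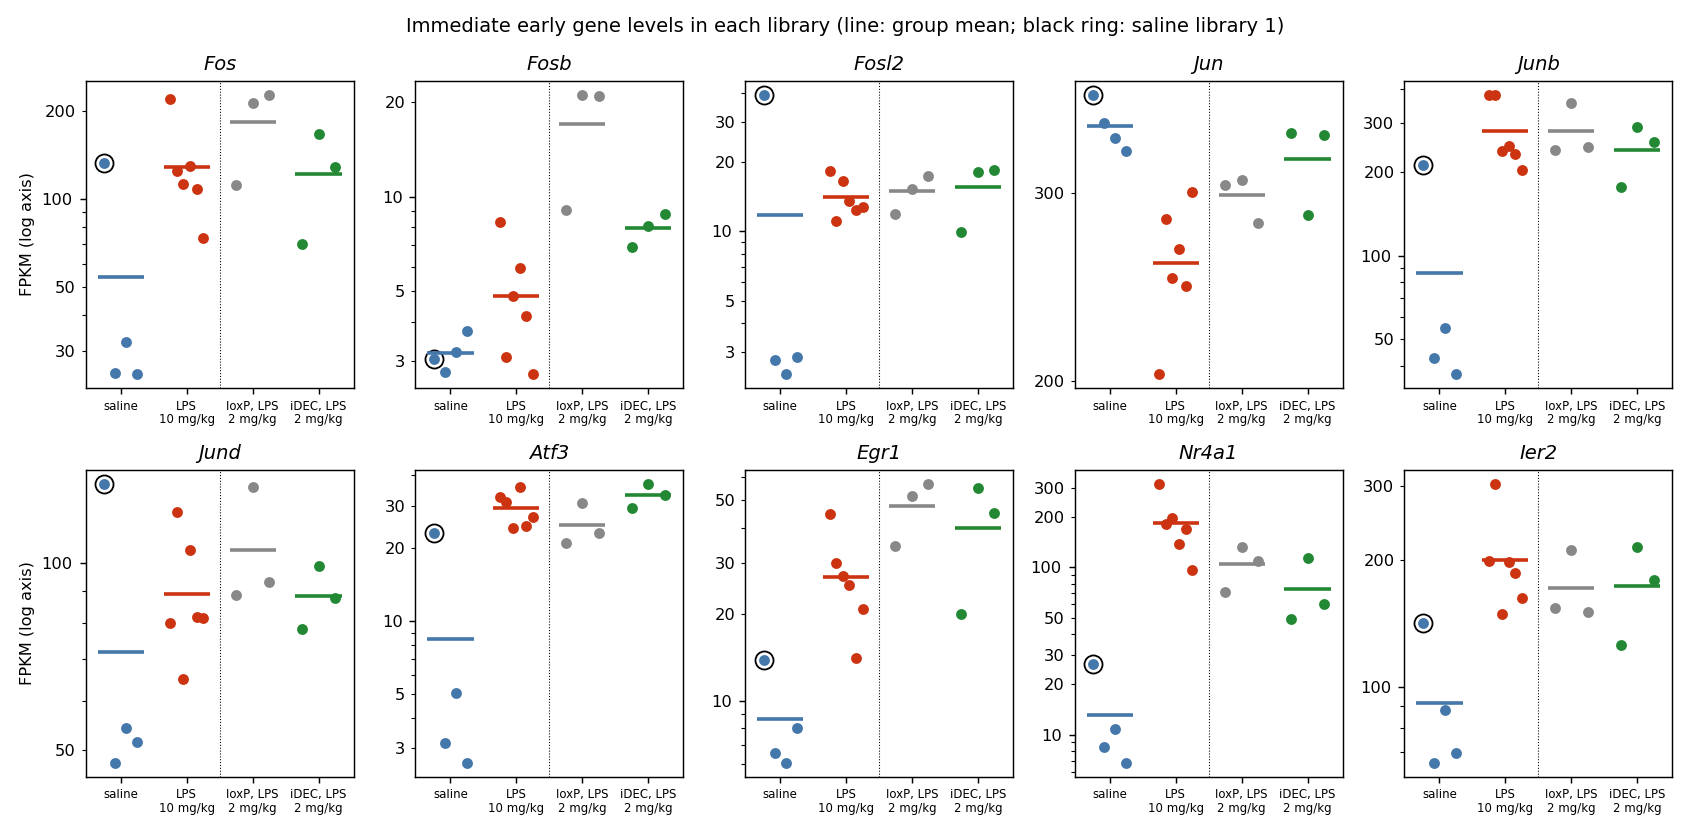
FPKM of each immediate early gene in every library on a log axis, by group; points are libraries in order of their number, lines are group means, the black ring marks saline library 1 and the dotted line divides the experiments. The 6 LPS libraries of Nr4a1, between 96.3 and 316 FPKM, lie above all saline libraries, whereas for Fos, Junb and Fosl2 saline 1 lies within or above the LPS libraries.

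Among the Fos genes, whose proteins need a Jun partner to bind DNA, only Fos was called. Fos (GRCm38, chr12:85473890-85477273, plus strand, 4 exons) stood at 133, 25.2, 32.1 and 25.1 FPKM in saline 1 to 4. In the LPS libraries the lowest level was 73.2, the median 119 and the highest 221 FPKM. Saline 1 lay inside the LPS range, and the other 3 saline libraries lay below all LPS libraries. The mean was 2.38 times higher in LPS, with a difference of 1.55 ± 0.45 (SE, limma adjusted p = 0.0129). Without saline 1 the ratio of means was 4.67 and the difference 2.11 (limma adjusted p = 0.000172).

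For Fosl2, which encodes the Fos-related antigen FRA-2 (chr5:32135801-32157842, plus strand), the call depended on that library and on the scaling. Its levels were 39.2, 2.76, 2.40 and 2.86 FPKM in saline 1 to 4, and in LPS they ran from 11.1 through a median of 13.1 to 18.4 FPKM. Saline 1 was above every LPS library, and the other 3 saline libraries were below every LPS library. With all libraries the difference was 1.16 ± 0.59 and missed the threshold (limma adjusted p = 0.119). Without saline 1 it was 2.02 (limma adjusted p = 6.07e-06). Its residual SD of 1.08 was larger than that of 99.1% of all genes tested, and without saline 1 it was 0.22, larger than that of 45.4%.

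Fosb, another Fos protein (chr7:19302696-19310051, minus strand), had the lowest mean of the 10 genes in both groups, although Fosl2 was lower in saline 2, 3 and 4. It stood at 3.04, 2.77, 3.22 and 3.74 FPKM in saline 1 to 4 and between 2.73 and 8.29 FPKM in LPS, with a median of 4.51 FPKM. The groups overlapped, also without saline 1. The difference of 0.42 had a 95% interval from -0.09 to 0.92 (limma adjusted p = 0.148) and was 0.40 without saline 1.

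Of the 3 Jun genes, whose proteins pair with each other or with Fos proteins, Junb was called and Jun and Jund were not. Jun (chr4:95049034-95052222, minus strand, 1 exon) was the most abundant of the 10 genes in saline, at 370.1, 349, 338 and 328 FPKM. In LPS its lowest level was 203, its median 258 and its highest 300.4 FPKM. All 6 LPS libraries were below all 4 saline libraries. The difference was -0.43 ± 0.15 with a limma adjusted p of 0.0297, short of the fold limit, and its sign depended on the scaling, since it was 0.29 when libraries were scaled on endothelial markers. Without saline 1 it was -0.40 (limma adjusted p = 0.05002), and the limma adjusted p also exceeded 0.05 without saline 2, 3 or 4 or LPS 5, in turn, reaching 0.0713. Of all genes tested, 23.7% had a lower level at an adjusted p of at most 0.05, and 16.7% had all LPS libraries below all saline libraries.

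Junb (chr8:84974484-84978718, minus strand, 1 exon) rose. Its levels were 212, 42.7, 54.9 and 37.3 FPKM in saline 1 to 4, and 204 at the lowest, 245 at the median and 380.3 at the highest in LPS. Saline 1 exceeded the lowest LPS library, and the other 3 saline libraries were below all LPS libraries. The difference was 2.03 ± 0.43 (limma adjusted p = 0.00229) and 2.59 without saline 1 (limma adjusted p = 1.75e-05). The ratio of means was 3.24 with saline 1 and 6.25 without it.

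Jund (chr8:70698949-70700616, plus strand, 1 exon) was not called. It stood at 134, 47.7, 54.3 and 51.4 FPKM in saline 1 to 4 and from 64.9 through a median of 81.6 to 121 FPKM in LPS. Saline 1 was above every LPS library and the other saline libraries below every LPS library. The difference was 0.42 (95% interval -0.20 to 1.04, limma adjusted p = 0.233), 0.76 without saline 1 (limma adjusted p = 0.00567, below the fold limit), -0.09 after quantile normalization and 1.13 on endothelial markers.

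Jun overlaps the antisense gene Junos, and Junb overlaps Prdx2, a peroxiredoxin on the other strand. Whether reads were counted by strand is not given in the sources used here, so reads in the overlaps cannot be told apart. Junos averaged 1.07 FPKM in saline and 1.11 FPKM in LPS. Prdx2 averaged 29.3 FPKM in saline and 58.8 FPKM in LPS, a difference of 0.94 (limma adjusted p = 0.00188), below the fold limit. Jund overlaps Gm11175 and Atf3 overlaps Gm24748, both of which were under the filter on low values.

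The balance among the Jun genes was computed after these levels had been seen, and it does not change with a scaling that applies 1 factor to a whole library, as all but quantile normalization do here. Jun made up 79.4%, 75.6% and 78.7% of the summed FPKM of Jun, Junb and Jund in saline 2, 3 and 4, and 51.7% in saline 1. In LPS its share ran from 30.6% through a median of 43.4% to 51.3%. All LPS libraries were below all saline libraries, saline 1 by a margin smaller than the spread among LPS libraries. Junb had a median share of 11% in saline and 42.4% in LPS, while the median share of Jund was 12.2% and 14.2%. In experiment 2 the median share of Jun was 45.3% in loxP and 49.6% in iDEC, and the groups overlapped. Between libraries of the same number it was 48.1% in loxP and 57.3% in iDEC, 38.7% and 42.3%, and 45.3% and 49.6%, higher in iDEC in all 3 pairs, while the shares of Junb and Jund were lower in all 3. No test was made of these shares.

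**Figure D2:**
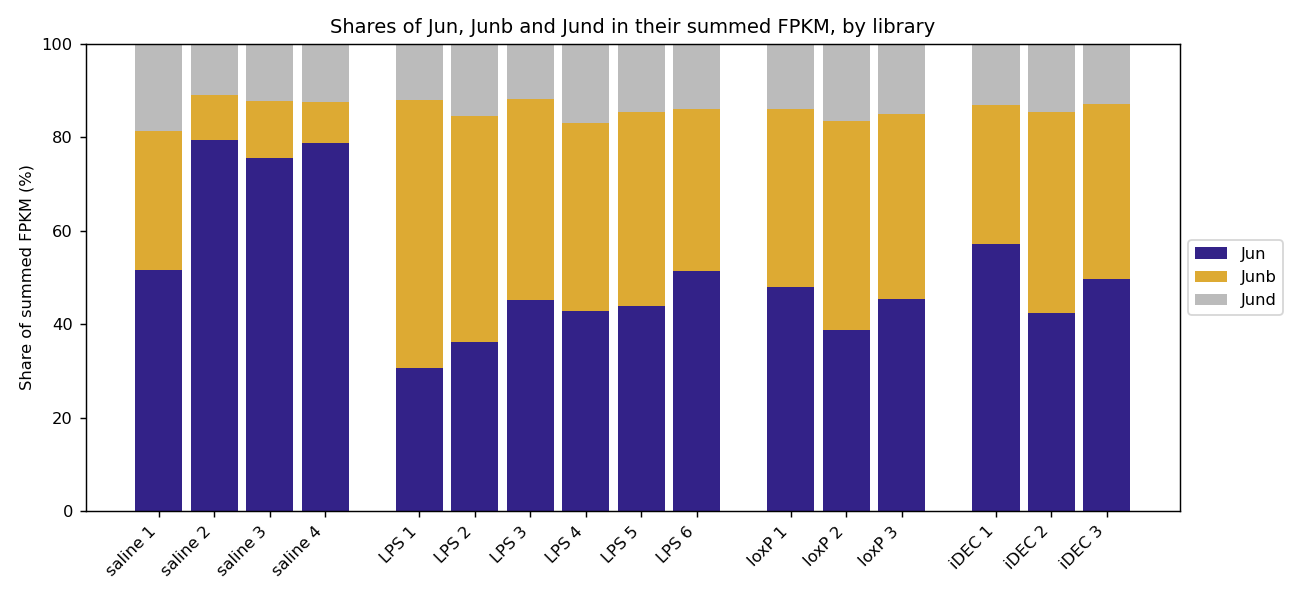
Stacked bars give the percentage of the summed FPKM of Jun, Junb and Jund that each gene held in every library. Jun held 75.6% to 79.4% in saline 2 to 4, 51.7% in saline 1 and 30.6% to 51.3% in the LPS libraries of experiment 1.

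A similar description of the Fos genes includes Fosl1, which encodes FRA-1 and is not among the 10. Fosl1 made up 27.3%, 23.5% and 26.4% of their summed FPKM in saline 2, 3 and 4 and 4.42% in saline 1. In LPS its share lay between 2.32% and 9.39%. Its own level was not called, averaging 10.6 ± 1.70 FPKM in saline (SD, n = 4) and 8.18 ± 1.33 in LPS (n = 6). The share of Fos had a median of 62.4% in saline and 81.5% in LPS.

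Nr4a1, an orphan nuclear receptor also called Nur77 (chr15:101254269-101274795, plus strand, 8 exons), had the largest difference of the 10. It stood at 26.6, 8.46, 10.8 and 6.81 FPKM in saline 1 to 4. In LPS the lowest level was 96.3, the median 176 and the highest 316 FPKM. Every LPS library was above every saline library, saline 1 included. The difference was 3.80 ± 0.37 (limma adjusted p = 1.74e-05) and 4.18 without saline 1, and the ratio of means 13.9, or 21.1 without saline 1. The difference was larger than that of 99.2% of all genes tested.

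Atf3, a stress-induced factor that represses inflammatory cytokine genes in macrophages (chr1:191170296-191218039, minus strand), was also apart. It stood at 23.1, 3.15, 5.07 and 2.62 FPKM in saline 1 to 4 and from 24.3 through a median of 29.0 to 36.0 FPKM in LPS. Saline 1 lay just under the lowest LPS library. The difference was 2.13 ± 0.43 (limma adjusted p = 0.00193) and 2.74 without saline 1 (limma adjusted p = 3.22e-06).

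Egr1, a zinc finger factor induced through serum response factor (chr18:34859823-34864984, plus strand), stood at 13.8, 6.57, 6.08 and 8.05 FPKM in saline 1 to 4. In LPS it ran from 14.1 through 26.2 to 44.6 FPKM, and the groups did not overlap, although the lowest LPS library was close to saline 1. The difference was 1.52 ± 0.29 (limma adjusted p = 0.00127) and 1.75 without saline 1. Ier2, a nuclear protein of the early response to growth factors (chr8:84661331-84662852, minus strand), stood at 142, 66.0, 87.9 and 69.7 FPKM in saline 1 to 4 and from 149 through 192 to 304 FPKM in LPS. These groups did not overlap either. The difference of Ier2 was 1.15 ± 0.25 (limma adjusted p = 0.00266) and 1.38 without saline 1, but 0.95 on total reads and 0.53 after quantile normalization, which are below the fold limit.

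The LPS libraries were thus above all saline libraries in 4 of the 10 genes (Atf3, Egr1, Ier2 and Nr4a1), against 22.7% of all genes tested. Without saline 1 this held for 8 of the 10, all but Fosb and Jun, against 29.2% of all genes tested. The median residual SD of the 10 genes was 0.59 on the log2 scale against 0.27 over all genes tested, and 9 of the 10, all but Jun, were above the median gene. Much of this came from saline 1, since without it the median was 0.34 against 0.24, with 8 of the 10, all but Jun and Fosl2, above.

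**Figure D3:**
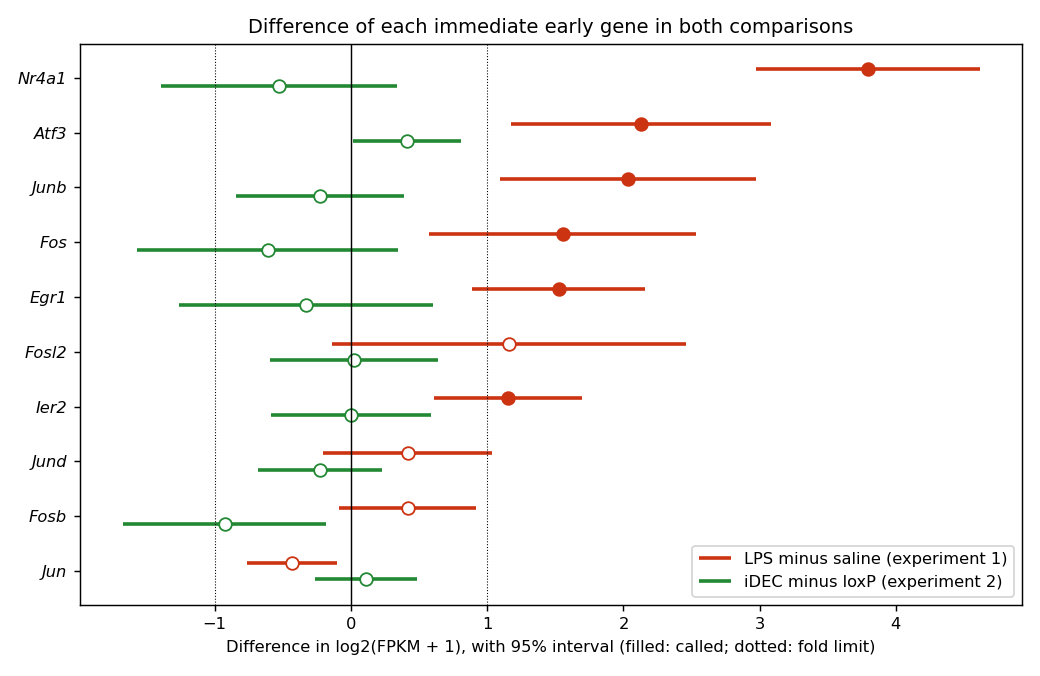
Difference in log2(FPKM + 1) of each immediate early gene with its 95% interval, for LPS minus saline and iDEC minus loxP; filled circles were called and dotted lines mark the fold limit of 1. The 6 called genes are in LPS minus saline, from 1.15 (Ier2) to 3.80 (Nr4a1), whereas Jun lies at -0.43, or 0.29 when scaled on endothelial markers, and Jund at 0.42, or -0.09 after quantile normalization.

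The order of the levels, which FPKM allows between genes, differed between the groups. In saline, Jun at 346 ± 17.9 FPKM (SD, n = 4) was separate from all others, and every neighbouring pair below it, from Ier2 at 91.4 FPKM down to Fosb at 3.19 FPKM, overlapped between libraries. Part of these overlaps and of the order rested on saline 1. In saline 2 to 4 the order below Jun was Ier2, Jund, Junb, Fos, Nr4a1, Egr1, Atf3, Fosb (3.24 FPKM) and Fosl2 (2.67 FPKM), in which Ier2, Junb, Fos and Egr1 were each separate from the gene below them. In LPS, Junb (281 ± 78.2, n = 6) and Jun (258 ± 33.8) headed the order and overlapped, as did Ier2, Nr4a1, Fos and Jund below them. Atf3 at 29.3 FPKM was separate from Jund above it, and Fosb at 4.85 FPKM was separate from Fosl2 above it. Nr4a1 averaged 13.2 FPKM in saline, below Fos and Jund, and 184 FPKM in LPS, above both.

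Single libraries held the extreme level of several genes. LPS 1 held the highest level of its group in 5 of the 10 genes (Fos, Fosb, Fosl2, Egr1 and Nr4a1), against 21.7% of all genes tested, and the lowest of Jun. LPS 6 held the lowest level in 4 (Fos, Fosb, Junb and Nr4a1), against 23.3%, and the highest of Jun. In iDEC, library 1 was lowest in 9 of the 10, all but Jun, against 32.7% of all genes tested, and in loxP, library 1 was lowest in 8, against 27.0%. These counts are a description, with no test.

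Leukocyte markers moved with the comparison and, within the groups, with several of these libraries. All 6 general leukocyte markers were called higher after LPS, as were 6 of 7 neutrophil and 6 of 7 macrophage markers. Their median differences were 3.12, 2.43 and 4.36. Of 10 endothelial markers, 3 (Kdr, Tek and Tie1) were called lower. None of the 10 had a positive difference, and their median difference was -0.71. The summed leukocyte markers, Coro1a being the most abundant, were 206, 145, 81.8 and 127 FPKM in saline 1 to 4 and 1847, 1560, 1268, 1295, 1439 and 755 FPKM in LPS 1 to 6. The highest of these sums was in LPS 1 and the lowest LPS sum in LPS 6.

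The summed macrophage markers were 33.5, 18.4, 21.6 and 21.5 FPKM in saline 1 to 4 and 965, 697, 611, 626, 860.2 and 417 FPKM in LPS 1 to 6. Csf1r, the receptor for macrophage colony-stimulating factor, was the most abundant in LPS 1 to 4 and 6, and C1qb in LPS 5. The summed neutrophil markers, with S100a9 on top in every library, were 2696, 6599, 1597, 3386, 2455 and 1277 FPKM in LPS 1 to 6. Ly6g was at 0 in saline 4 and Marco in saline 1, and no other leukocyte, neutrophil or macrophage marker was at 0 in any library.

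The summed endothelial markers were 5429, 3276, 4066 and 3391 FPKM in saline 1 to 4 and 1434, 3361, 2148, 3382, 2551 and 3105 FPKM in LPS 1 to 6. LPS 1 was the lowest of all. Unlike the other leukocyte lists, lymphocyte markers were not called higher, and 3 of 5 tested were called lower. Of the other lists, 3 of 8 epithelial and 2 of 7 mural markers were called lower, 3 of 4 erythroid markers tested were called higher, and none of 6 fibroblast markers was called. The part of leukocyte RNA in the levels of the 10 genes was not tested.

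**Figure D4:**
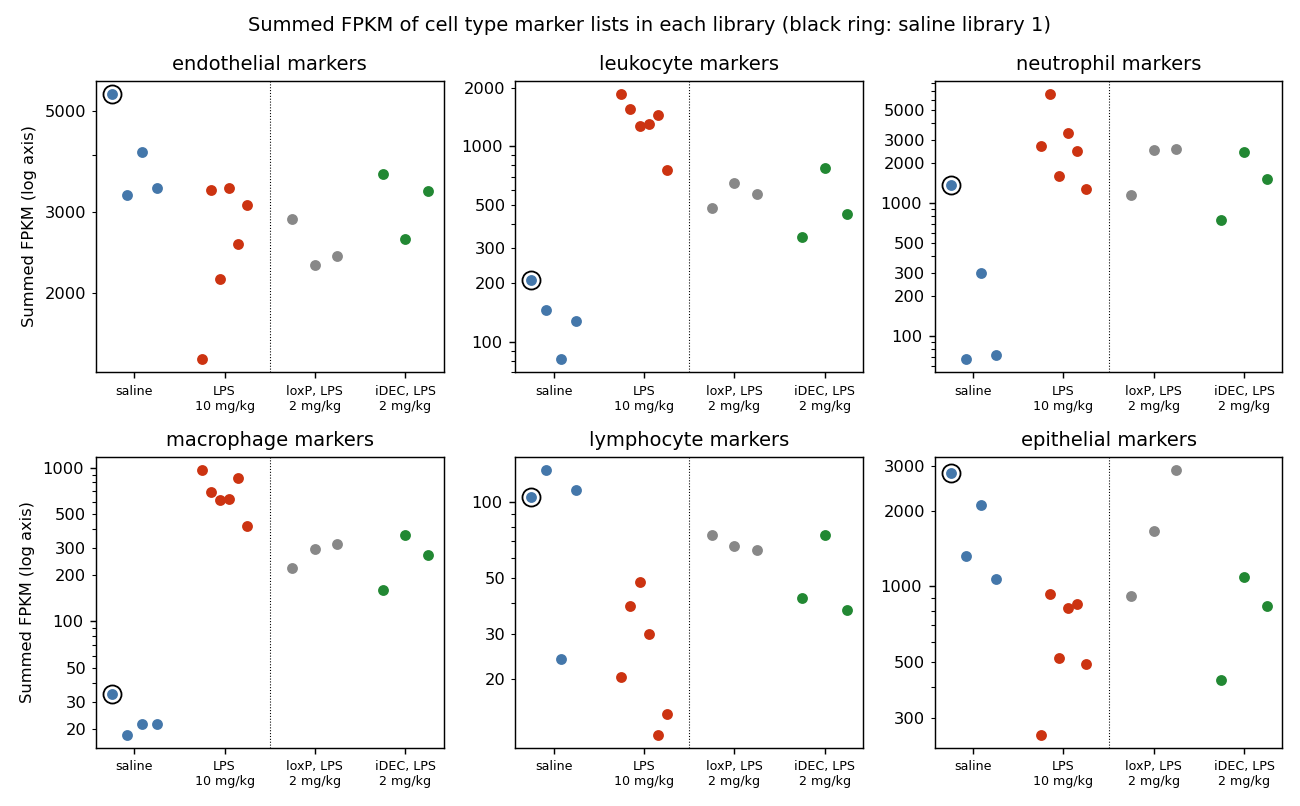
Summed FPKM of 6 lists of cell type markers in every library on a log axis, by group, with saline library 1 ringed. Leukocyte sums were 81.8 to 206 FPKM in saline and 755 to 1847 FPKM in LPS, and macrophage sums 18.4 to 33.5 and 417 to 965 FPKM.

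For each gene the 3 genes with the most similar course over the 10 libraries of experiment 1 were found by the root mean square difference of their deviations from the group means, on the log2 scale, among 12849 genes. Those of Nr4a1 were Pirb (0.11), Csf2ra (0.12) and Igsf6 (0.13), and those of Fos were Rnf149 (0.12), Slc11a1 (0.14) and Slc2a6 (0.15). Those of Junb were Fcgr3 (0.16), Fcer1g (0.17) and Nfkbia (0.17), and those of Atf3 were Mir22hg (0.22), Plaur (0.22) and Nfkbia (0.22).

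The deviations of the genes themselves had a root mean square of 0.59 for Nr4a1, 0.72 for Fos, 0.68 for Junb and 0.70 for Atf3, and without saline 1 of 0.44, 0.39, 0.31 and 0.25. For the remaining genes the nearest were Fam167a, Zc3h12a and Tnfrsf26 for Egr1, Nfkbil1, Atp6v1g1 and Dnajc17 for Ier2, and Tm9sf2, Rnf215 and Syt11 for Jun. Sfn, Sars and Anxa2 were nearest to Jund, Htr7, Serpinb2 and 1110002J07Rik to Fosb, and Traj41, Per1 and Ighd3-2 to Fosl2. None of the 10 genes was among the 3 nearest of another.

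Without saline 1, 6 of the 30 nearest genes were the same. These were Csf2ra (0.11) and Pirb (0.11) for Nr4a1, Htr7 (0.14) and Serpinb2 (0.14) for Fosb, and Tnfrsf26 (0.11) and Fam167a (0.16) for Egr1. All 3 nearest genes of Fos, Fosl2, Jun, Junb, Jund, Atf3 and Ier2 were different ones, so for these genes the choice of the nearest depended on saline 1. In the 6 libraries of experiment 2 the distance of Csf2ra to Nr4a1 was 0.10 and that of Pirb 0.13, against a deviation of 0.45 in Nr4a1, and 34.6% of all genes compared were closer to Nr4a1 than that deviation. Htr7 (0.49) and Serpinb2 (0.45) were farther from Fosb there than its deviation of 0.39. Tnfrsf26 (0.28) and Fam167a (0.41) were nearer to Egr1 than its deviation of 0.48, as were 34.6% of all genes compared. Of the 30 nearest genes found with all libraries, 21 were nearer in experiment 2 than the deviation of their own member. For single members, between 13.6% (Jun) and 34.6% (Egr1) of all genes compared were that near. No test was made of these likenesses.

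Other genes of the same pathways were described by lists. Of 12 AP-1 and ATF relatives, 4 were called higher and none lower, with a median difference of 0.78. Batf, which pairs with Jun proteins in leukocytes, rose from 1.58 to 45 FPKM (4.09, limma adjusted p = 8.38e-06), and its relative Batf3 from 0.21 to 4.02 FPKM (2.04). Atf4, the factor of the integrated stress response, rose from 74.5 to 185 FPKM (1.29, limma adjusted p = 9.25e-05), and Jdp2, a Jun dimerization protein, from 25.5 to 52.1 FPKM (1.26), although saline 1 at 57.6 FPKM lay inside the LPS range.

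Of 27 further immediate early genes, 25 passed the filter, 12 were called higher and none lower, with a median difference of 0.92. Nfil3, a bZIP repressor, had a difference of 2.61 (limma adjusted p = 0.00675), or 3.57 without saline 1. It stood at 27.5, 0.83, 1.16 and 1.10 FPKM in saline 1 to 4 and between 14.9 and 34.6 FPKM in LPS, so that saline 1 lay inside the LPS range. Ier3, a regulator of cell survival, rose from 78.1 to 449 FPKM (2.49), and its groups did not overlap. Gadd45b, an activator of stress kinases, rose from 27.5 to 158 FPKM (2.32), and Trib1, a pseudokinase, from 4.18 to 21.2 FPKM (2.22). The relatives of Nr4a1 were not called higher. Nr4a2 averaged 2.66 FPKM in saline and 0.57 FPKM in LPS (-0.95, limma adjusted p = 0.0375, below the fold limit) and Nr4a3 0.52 and 1.18 FPKM (0.48, limma adjusted p = 0.296).

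Among 13 genes that end the response, by dephosphorylating MAP kinases or by destabilizing messages, 6 were called higher and none lower, with a median difference of 0.84. Dusp5, a nuclear ERK phosphatase, rose from 2.54 to 29.0 FPKM (3.03), Dusp2 from 5.08 to 37.0 FPKM (2.73), Dusp16, a phosphatase of JNK and p38, from 7.38 to 26.9 FPKM (1.86) and Dusp6, the cytoplasmic ERK phosphatase, from 33.6 to 117 FPKM (1.77). All 4 had limma adjusted p-values of 0.000326 or lower.

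Of 19 kinases and factors that act upstream, 2 were called higher, 1 was called lower, and the median difference was -0.13. Without LPS 2, 1 of the 19 was called. Map2k1 and Map2k2, the kinases of ERK, rose from 19.6 to 43.6 FPKM (1.11) and from 14.1 to 30.3 FPKM (1.03). Mkl2, a coactivator of serum response factor, fell from 15.6 to 7.34 FPKM (-1.01), or -0.99 without saline 1, which is below the fold limit. Of 13 heat shock genes, which tissue handling can also induce, 2 were called higher, Hspa8 from 129 to 380.4 FPKM (1.53) and Hsp90aa1 from 26.8 to 72.0 FPKM (1.52). The stress-inducible Hspa1a and Hspa1b averaged 1.38 and 3.45 FPKM in saline and 1.74 and 2.76 FPKM in LPS. Their limma adjusted p-values were 0.421 and 0.717. The SD of Hspa1b was 4.68 FPKM in saline, above its mean, and 0.75 FPKM in LPS. Single saline libraries therefore weighed heavily on the comparison of Hspa1b. Its difference on the log2 scale was 0.20, although its mean FPKM was lower in LPS.

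Of 12 genes known for AP-1 sites in their control regions, 10 passed the filter, 8 were called higher and none lower, with a median difference of 2.14. Ccl2, a monocyte chemoattractant, had at most 6 reads in any saline library and averaged 52.7 FPKM in LPS (5.55). Hmox1, which degrades heme, rose from 8.88 to 249 FPKM (4.67), Timp1, a metalloproteinase inhibitor, from 1.33 to 52.9 FPKM (4.53) and Mmp9, a gelatinase, from 5.15 to 29.6 FPKM (2.54). Plau, a plasminogen activator, and F3, tissue factor, were not called, at -0.11 and 0.11. F3 averaged 3.54 ± 4.90 FPKM in saline (SD, n = 4) and 2.49 ± 0.51 FPKM in LPS (n = 6). Its saline SD exceeded its mean, so single saline libraries weighed heavily on that comparison. For comparison, 11.9% of all genes tested were called higher. The lists were chosen with earlier results of these data known, so this contrast is a description and no test. Without saline 1 the genes called were 5 AP-1 and ATF relatives, 16 further immediate early genes, 8 feedback genes, 3 upstream genes, 3 heat shock genes and 8 genes with AP-1 sites. In that fit 1947 of all 14767 genes tested were called higher and 1078 lower. Scaled on endothelial markers the genes called were 7 AP-1 and ATF relatives, 19 further immediate early genes, 8 upstream genes and 6 heat shock genes. In that fit 4374 of all 15009 genes tested were called higher and 204 lower. After quantile normalization 2 AP-1 and ATF relatives were called, and of all 14893 genes tested 1366 were called higher and 1326 lower. With no fold limit the genes called were 7 AP-1 and ATF relatives, 14 upstream genes and 5 heat shock genes. Over all 14893 genes tested, 4399 were then called higher and 3529 lower.

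**Figure D5:**
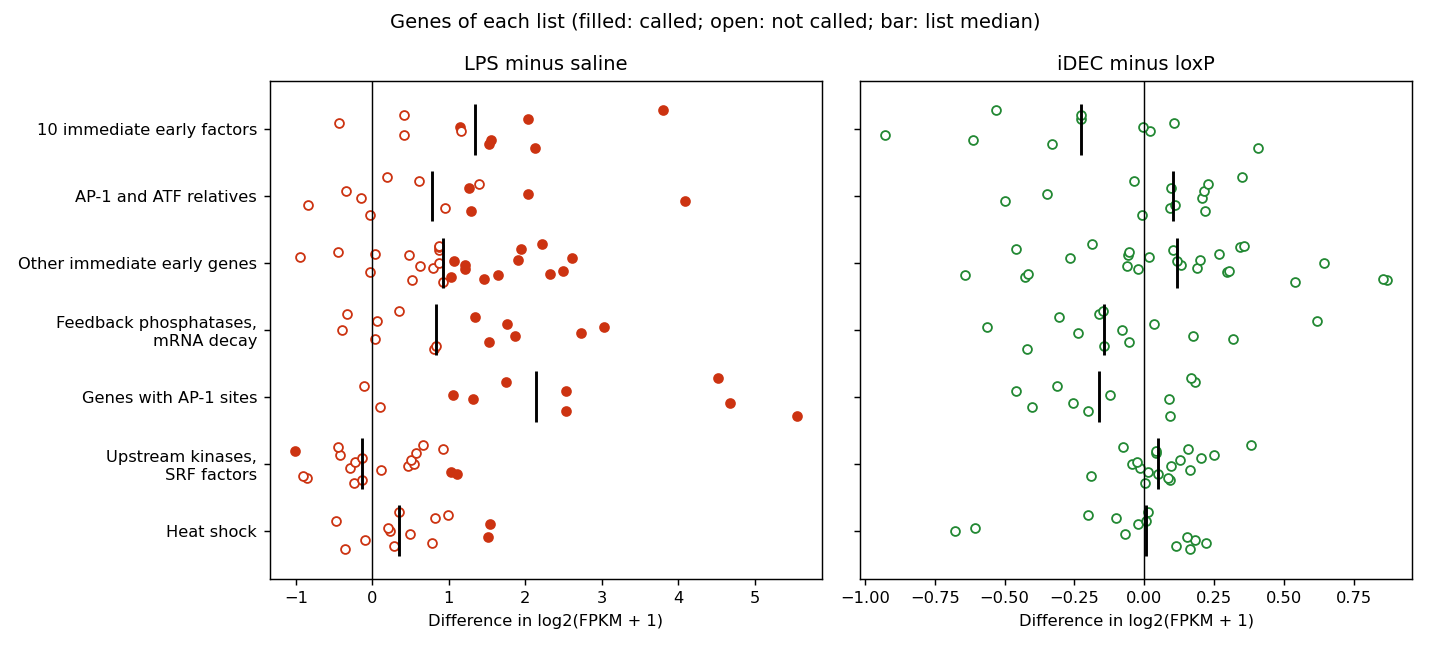
Differences in log2(FPKM + 1) of the genes of each list, for LPS minus saline on the left and iDEC minus loxP on the right, with filled circles for called genes and bars for list medians. In LPS minus saline the medians run from -0.13 for upstream kinases and SRF factors to 2.14 for genes with AP-1 sites, and no gene was called in iDEC minus loxP.

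The second comparison asked whether endothelial loss of Fgfr1 altered these genes under LPS. None of the 10 genes was called, and none of the 14945 genes tested was called (0%), with a smallest limma adjusted p of 0.742. At an unadjusted p under 0.05 there were 661 genes, or 4.42% of those tested, and limma-voom on reads called none and had 608 at that level. With the library number as a replicate block, none was called and 1154 genes were at that level. Among the 10 genes, 2 had an unadjusted p under 0.05, Fosb and Atf3. The median difference of the 10 was -0.23 against 0.01 over all genes tested.

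Fosb stood at 9.05, 21.1 and 20.9 FPKM in loxP 1 to 3 and at 6.90, 8.10 and 8.78 FPKM in iDEC 1 to 3. Every iDEC library was below every loxP library, with loxP 1 close to the highest iDEC library. The mean was 0.467 times that of loxP, and the difference was -0.93 with a 95% interval from -1.68 to -0.18 (limma adjusted p = 0.962). Of all genes tested, 4.09% had all iDEC libraries below all loxP libraries. In these same libraries the summed epithelial markers were 915, 1659 and 2904 FPKM in loxP 1 to 3 and 426, 1095 and 839.5 FPKM in iDEC 1 to 3, and their part in the level of Fosb was not tested.

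Atf3 stood at 21.0, 30.7 and 23.2 FPKM in loxP and at 29.4, 37.0 and 33.1 FPKM in iDEC. The groups overlapped, since loxP 2 was above iDEC 1. The difference was 0.41 with a 95% interval from 0.01 to 0.80 (limma adjusted p = 0.962). Fos stood at 112, 213 and 228 FPKM in loxP and at 70.0, 167 and 128 FPKM in iDEC, overlapping, with a difference of -0.61 (95% interval -1.57 to 0.34).

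Nr4a1 stood at 70.9, 133 and 109 FPKM in loxP and at 49.0, 113 and 60.6 FPKM in iDEC, also overlapping, with a difference of -0.53 (95% interval -1.40 to 0.33). Egr1, at 34.4, 51.4 and 56.9 FPKM in loxP and 19.95, 55.0 and 45.05 FPKM in iDEC, had a difference of -0.33 (95% interval -1.26 to 0.60). The groups overlapped for both genes, and library 1 was the lowest of its group for both.

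Junb and Jund both had differences of -0.23, with 95% intervals from -0.84 to 0.39 and from -0.68 to 0.23. Jun had 0.11 (-0.27 to 0.48), Fosl2 0.02 (-0.60 to 0.64) and Ier2 -0.00 (-0.59 to 0.58). Intervals of this width leave a difference of 1 within reach for Fos, Nr4a1, Egr1 and Fosb. Scaled on endothelial markers the intervals reached 1 for 8 of the 10, with lower limits of -1.33 for Junb, -1.20 for Jund, -1.09 for Ier2 and -1.02 for Fosl2, but not for Jun and Atf3.

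Between libraries of the same number, 4 of the 10 genes (Fos, Fosb, Jund and Nr4a1) were lower in iDEC in all 3 pairs, against 12.9% of all genes tested, and 1 (Atf3) was higher in all 3, against 17.8%. With the library number as a replicate block, the 95% intervals were -0.98 to -0.25 for Fos, -1.47 to -0.38 for Fosb, -0.92 to -0.14 for Nr4a1, -0.81 to 0.15 for Egr1 and 0.15 to 0.66 for Atf3, and a difference of 1 was within reach for Fosb alone. In that fit 4 of the 10 genes had an unadjusted limma p under 0.05, Fosb (0.00760), Fos (0.00827), Atf3 (0.00964) and Nr4a1 (0.0181), against 7.72% of all genes tested. Their limma adjusted p-values were between 0.571 and 0.593, so none was called. The pairing by number was read from these same data and not from the labels, so these counts and p-values are a description.

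The leukocyte sums in experiment 2 were 485, 649 and 572 FPKM in loxP 1 to 3 and 344, 777 and 449 FPKM in iDEC 1 to 3, and the neutrophil sums 1154, 2529 and 2568 FPKM and 742, 2417 and 1517 FPKM. Library 1 was the lowest of its group in both sums, as it was for most of the 10 genes. All 7 neutrophil markers had negative differences, with a median of -0.50 and none called, as had all 7 macrophage markers (median -0.10) and all 6 lymphocyte markers (median -0.42, Cd3d alone at an unadjusted limma p under 0.05). All 8 epithelial markers had negative differences too, with a median of -0.90, 4 of them (Sftpc, Sftpa1, Ager and Cldn18) at an unadjusted limma p under 0.05 and none called, while 9 of 10 endothelial markers had positive ones, with a median of 0.29. The part of these cells in the differences of the 10 genes, those lower in all 3 pairs included, was not tested.

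No gene of the other lists was called in iDEC against loxP, and 8 of 92 had an unadjusted limma p under 0.05, against 4.42% of all genes tested. Of these, 5 had higher levels in iDEC, namely Klf4 (0.65), Dusp8 (0.62), Csrnp1 (0.54), Srf (0.38) and Mafk (0.35), and 3 had lower ones, Egr2 (-0.43), Gadd45b (-0.42) and Plau (-0.31). In all 8 the groups did not overlap, but picking genes for a small p in groups of 3 libraries makes this likely. It therefore adds no support. All 8 had a limma adjusted p of 0.962. Of the genes named above, Dusp5 had a difference of -0.56 ± 0.33 (SE), Batf -0.50 ± 0.33, Ier3 0.30, Hmox1 -0.26 and Ccl2 0.09. List medians lay between -0.16 for genes with AP-1 sites and 0.12 for the further immediate early genes.

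Levels in the 2 experiments are set side by side without a test, since dose, genotype, tamoxifen and experiment all differed. The values of each experiment were also scaled separately, and only some of the 10 genes are given. Fosb averaged 4.85 FPKM after 10 mg/kg and 17.0 FPKM in loxP after 2 mg/kg, and Egr1 27.0 and 47.6 FPKM. Nr4a1 went the other way, at 184 and 104 FPKM. Junb was nearly equal, at 281 and 282 FPKM.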

How the data were processed

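RNA of bead-sorted lung endothelial cells from 16 mice was sequenced, and each library is labelled as a separate sample, so p-values measure the spread between these samples. The authors aligned reads to mm10 with HISAT2 2.0.5, counted them with featureCounts 1.5.0-p3 and deposited FPKM per gene, 1 table per experiment. Trimming, strand setting, treatment of multi-mapping reads and annotation release are not given in the sources used here. In the table of experiment 2, 11 symbols had been turned into dates, and those of experiment 1 were used. From the deposited FPKM, 100% of values were recovered as whole reads within 0.02 reads, and these gave the depths.

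FPKM were scaled by median of ratios, on top of the scaling between libraries that the deposited values already carried, which moved no library of experiment 1 and at most 0.182% in experiment 2. They were tested as log2(FPKM + 1) with limma 3.58.1 in R 4.3.3 (eBayes with trend) without a block, and only within an experiment, leaving out genes that averaged under 0.5 FPKM. Such a difference understates the change of low genes. p-values were adjusted by Benjamini-Hochberg over all genes tested. The procedure was run on simulated read numbers with the same variation set for all genes and no outlying library. That run does not cover a library such as saline 1. Nearest genes were taken among those with a mean of at least 1 FPKM. The members and lists were chosen with earlier results of these data known. Named genes were all members, Fgfr1, Ptprc, Pecam1, up to 4 called genes with the largest differences per list and 3 nearest genes per member, while Prdx2, Junos, Fosl1, Nr4a2, Nr4a3, Hspa1a, Hspa1b, Plau, F3, Klf4, Dusp8, Csrnp1, Srf, Mafk, Egr2, genes overlapping members and single cell type markers were added after their values were seen. Same-numbered libraries of experiment 2 deviated together (r = 0.248, 0.178 and 0.187 over genes, all other pairs below 0). Deviations from a group mean sum to 0, so the r of the other pairs are not separate evidence. The labels do not say that the numbers pair libraries. The replicate block and the counts by number therefore rest on a pairing read from these same data. Alternatives were other scalings, pseudocount 0.1, no filter or at least 2 FPKM, limma-voom, no fold limit, the replicate block and leaving out each library. Promoters came from RefSeq and gene positions from the deposited annotation on GRCm38.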

Additional observations from a re-analysis of the deposited data

Results flagged for a closer look

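Of 24 values per group examined in groups of 4 or 6 libraries, 4 had a library far from the others. For independent values chance gives about 1 in 20, or 1.2. All 4 were saline library 1. Values of the same library are not independent, and the Jun share is computed from the Jun genes. No excess over chance is therefore drawn from this count. Its Fos level was 7.07 on the log2(FPKM + 1) scale, against 4.70 to 5.05 in the other 3 saline libraries. Its Fosl2 level was 5.33 against 1.77 to 1.95, and its Jund level was 7.08 against 5.61 to 5.79. Jun made up 51.7% of the summed FPKM of the Jun genes in this library, against 75.6% to 79.4% in the other saline libraries. The summed neutrophil (1369 FPKM), epithelial (2834 FPKM), endothelial (5429 FPKM), leukocyte (206 FPKM) and macrophage markers (33.5 FPKM) of the library were also the highest of its group, as were its sums of the other lists except lymphocyte markers, and their part in these levels was not tested.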

How the results depend on the processing

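The 6 calls of immediate early genes after LPS ranged from 5 to 8 over all alternatives. Ier2 lost its call on total reads (0.95) and after quantile normalization (0.53), and Fosl2 gained one on endothelial markers (1.77) and without saline 1 (2.02). Jund gained a call on endothelial markers (1.13). Quantile normalization and dropping the fold limit each gave 1 immediate early gene called lower, which was Jun (-1.03 and -0.43). Over all genes, 4374 were called higher and 204 lower on endothelial markers, 4399 and 3529 without a fold limit, 1840 were called lower with pseudocount 0.1 and 2008 with limma-voom. Signs turned for Jun (0.29 on endothelial markers) and Jund (-0.0905 after quantile normalization). The cause was not tested.

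In iDEC against loxP no alternative called any gene. Signs turned for Fosl2 (-0.0419 on total reads, -0.00829 after quantile normalization, -0.21 on endothelial markers) and Jun (-0.14 on endothelial markers), a scaling that moved the median of all genes to -0.19. Leaving out a library gave ranges of -0.94 to -0.26 for Fos, -1.30 to -0.74 for Fosb, -0.88 to -0.28 for Nr4a1, -0.38 to -0.02 for Junb, -0.33 to -0.05 for Jund, 0.06 to 0.19 for Jun, 0.30 to 0.56 for Atf3, -0.12 to 0.30 for Fosl2, -0.61 to 0.10 for Egr1 and -0.18 to 0.21 for Ier2. Without iDEC 1 the difference was -0.26 for Fos, -0.28 for Nr4a1 and -0.02 for Junb, and without loxP 2 it was -0.05 for Jund.

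With the replicate block, 0 genes were called in iDEC against loxP and 1154 had an unadjusted p under 0.05. In LPS against saline the same-numbered pairs had r of 0.0972, -0.162, -0.209 and -0.117, so those libraries shared only a number. There the replicate block called 1925 genes higher and 1063 lower, with 6 immediate early genes higher. The replicate block changed no call of the 10 genes in either comparison.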
